A study of Mus musculus with 12 samples.

Results

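Most of the 8 genes reported here belong to epithelial surfaces, receptor scaffolds and related structures, and Hormad2 to meiotic chromosomes. The signal of Ly6d, Gprc5b, Ephb2, Gipc2, Sdcbp2, Pls1, Tinag and Hormad2 in mouse liver was higher on a high-fat than on a low-fat diet. They were chosen for that difference, and every array probe that carries one of these names was taken, with Pls1 listed in the array design under its older name AI427122. That gave 9 of 41174 probes and 8 of the 17037 genes tested, and all 9 probes passed the filter on dim signals, which asks that all 3 arrays of at least 1 group be well above background. Of these, 4 (Tinag, Gipc2, Hormad2 and the dimmer of the Ephb2 probes) passed through high-fat groups alone. The filter itself favoured a diet difference for them. Because the diet comparisons chose the genes, their diet differences are given as a description, with no test. The comparison of genotypes over both diets played no part in the choice and was tested.

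Liver RNA of 12 male C57BL/6 mice was hybridised to 1-colour microarrays, 1 array per mouse. The 4 groups, 3 mice each, were Sirt1 heterozygotes (SIRT1+/-, Het) on a high-fat diet, wild types (SIRT1+/+, WT) on a high-fat diet, Het mice on a low-fat diet and WT mice on a low-fat diet, all fed for 34 weeks. Sirt1 encodes a deacetylase that uses NAD as cofactor, and the series crosses loss of 1 copy of it with diet. The age of the mice, the composition of the diets and the part removed from the Het allele are not given in the sources used here. A level is the log2 of a probe's processed signal relative to the 75th percentile of its array, so that 0 is that percentile and each step of 1 is a doubling. A probe is well above background on an array where the scanner software set that flag, and folds are given only as bounds where no array of the low group had it.

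The 75th percentile lay between 975.1 and 2006.4 intensity units and 58.0% to 71.6% of spots were well above background. With 3 arrays per group, their number limits the precision. Among the low-fat mice, the arrays with the lowest 75th percentiles were WT replicate 2 (1186.2) and Het replicate 3 (1370.4), while the other 4 lay between 1821.0 and 2006.4. High-fat and low-fat arrays lay on separate slides and were scanned on different days, so diet, slide and scan day cannot be told apart. Genotype and slide also overlap in part. On the high-fat diet WT replicates 1 and 2 lay on a slide without Het arrays. On the low-fat diet Het replicates 2 and 3 lay on a slide without WT arrays. The hepatocyte markers Alb, Apoa1 and Ttr were well above background on all 12 arrays. Sirt1 was lower in Het than in WT mice over both diets on each of its probes, by a log2 difference of -0.44 ± 0.09 (SE) and -0.64 ± 0.09. This is the direction that the labels give, but neither probe was called (limma adjusted p = 0.935 and 0.355 over all probes). In whole liver, more cells of a type and more RNA per cell cannot be told apart.

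Epithelial cells carry receptors and anchored proteins on their surface, hold them in place with scaffold proteins, support the surface with bundled actin and rest on a basement membrane. PDZ domains are protein modules that bind the tails of membrane receptors, and plastins cross-link actin filaments in microvilli. Hepatocytes are themselves epithelial, with a canalicular surface rich in microvilli, and the liver also holds the bile duct epithelium.

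The 9 probes are printed first because every value below is the brightness of one of them. Each has 60 bases, in lower case from 5′ to 3′, with positions on mouse build mm7 as the array design gives them. No annotation of that build was used here, so exons and untranslated regions are not given. On the minus strand lie Ly6d (chr15:74842671-74842730), Gprc5b (chr7:114894884-114894943), the brighter Ephb2 probe (chr4:136033124-136033183), the dimmer Ephb2 probe (chr4:136035998-136037395), Gipc2 (chr3:151995488-152003870), Pls1 (chr9:95398668-95398727), Tinag (chr9:76989211-76989270) and Hormad2 (chr11:4298163-4298222). Sdcbp2 lies on the plus strand (chr2:151330530-151330589). The Gipc2 probe and the dimmer Ephb2 probe cover 8383 and 1398 bases of genome, more than their own length, and the Ephb2 probes lie 2814 bases apart.
Ly6d: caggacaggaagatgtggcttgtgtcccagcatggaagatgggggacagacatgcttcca
Gprc5b: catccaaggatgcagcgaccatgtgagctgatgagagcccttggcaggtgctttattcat
Ephb2 brighter: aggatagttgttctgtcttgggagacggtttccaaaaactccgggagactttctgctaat
Ephb2 dimmer: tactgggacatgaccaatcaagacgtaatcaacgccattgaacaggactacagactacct
Gipc2: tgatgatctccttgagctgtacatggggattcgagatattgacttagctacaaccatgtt
Sdcbp2: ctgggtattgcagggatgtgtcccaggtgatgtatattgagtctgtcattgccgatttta
Pls1: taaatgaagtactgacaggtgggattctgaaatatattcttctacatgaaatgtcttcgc
Tinag: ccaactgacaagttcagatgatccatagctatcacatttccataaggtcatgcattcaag
Hormad2: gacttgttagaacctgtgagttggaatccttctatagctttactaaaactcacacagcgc

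The alternating G and T runs that mark some probes of this array were short in all 9, at 2 to 5 bases. Runs of 8 or more occurred in 0.325% of all probes. GC content ran from 35% (Pls1) to 55% (Ly6d), against a median of 40% over all probes.

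Promoters from RefSeq (GRCm38.p6), 250 bases before to 50 after the gene's start, were matched for 6 of the 8 genes, all but Gipc2 and Ly6d. They were searched on both strands for TATAAA (the box that binds TBP), CCAAT (bound by NF-Y), CACGTG (the E-box), TGANTCA (the AP-1 motif), AGGTCA (the core of many nuclear receptor sites) and GTTAAT (part of the HNF1 motif). No 2 of these motifs overlap in the promoters shown. CCAAT stood in the promoters of Sdcbp2 and Ephb2, 2 of 6 against 37.4% of all 32851 promoters, starting 225 and 64 bases before the gene's start. TGANTCA stood in that of Sdcbp2 alone, 44 bases before the start, and in 7.81% of all promoters. The other 4 motifs were in none of the 6, against 13.6% of all promoters for TATAAA, 7.15% for CACGTG, 16.3% for AGGTCA and 7.10% for GTTAAT. Sdcbp2 (chr2:151572373-151572672, plus strand) is shown as the promoter with most matches, its CCAAT (on the other strand) and TGANTCA in capitals. Tinag (chr9:77045732-77046031, minus strand) is shown as the odd one in composition, and holds none of the motifs.
Sdcbp2 promoter: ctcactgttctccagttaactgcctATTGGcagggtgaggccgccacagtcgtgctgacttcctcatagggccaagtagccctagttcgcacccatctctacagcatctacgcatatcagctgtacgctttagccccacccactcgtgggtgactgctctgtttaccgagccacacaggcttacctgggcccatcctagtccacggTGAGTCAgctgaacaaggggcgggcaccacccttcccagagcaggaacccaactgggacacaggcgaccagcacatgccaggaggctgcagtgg
Tinag promoter: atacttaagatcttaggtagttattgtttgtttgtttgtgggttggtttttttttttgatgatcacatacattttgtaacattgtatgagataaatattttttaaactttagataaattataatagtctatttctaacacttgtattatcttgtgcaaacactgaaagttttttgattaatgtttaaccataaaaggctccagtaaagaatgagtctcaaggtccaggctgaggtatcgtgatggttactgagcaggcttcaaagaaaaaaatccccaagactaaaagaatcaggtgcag

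The Tinag promoter had 31% GC and 1 CpG, against 59% to 68.7% and 10 to 24 CpGs in the other 5. The median over all promoters was 52.7% GC and 7 CpGs. A match is a description of these letters and says nothing of binding.

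All 9 probes were brighter on each of the 6 high-fat arrays than on each of the 6 low-fat arrays. Over all genes tested 6.02% separated in this way. Within a genotype 17.4% of all genes did so in Het mice, 12.5% in WT mice and 7.70% in both, and nothing is read from that for genes chosen on diet. Tinag and Hormad2 have only a lower bound in Het mice, where no low-fat array was well above background for them. The differences of the other 6 genes ranged from 2.89 to 4.54 log2 units in Het mice, and those of all 8 from 2.22 to 4.81 in WT mice. With the 2 genes at their bounds the median was 3.55 in Het mice, and it was 3.74 in WT mice, against 0.00 in Het and -0.05 in WT mice over all genes. The plot of levels on each array shows the 9 probes.

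**Figure D1:**
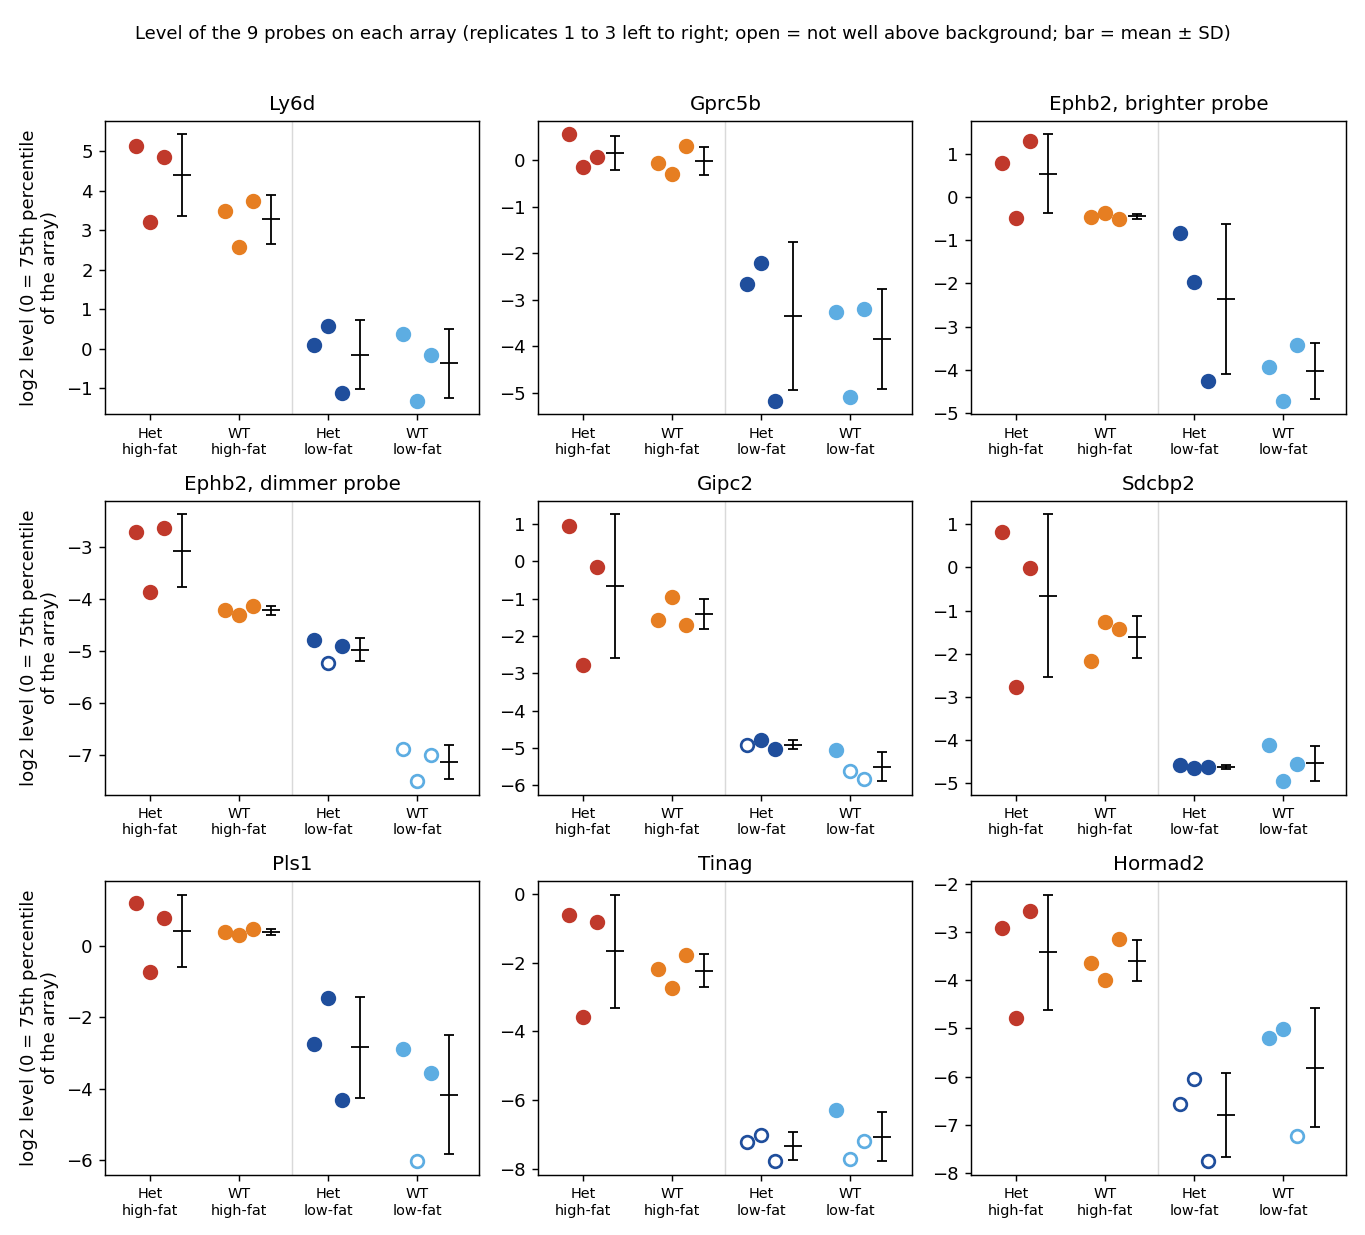
Level of each of the 9 probes on the 12 arrays, as log2 signal relative to the array's 75th percentile. Points are mice, open where the probe was not well above background, and bars are the group mean ± SD (n = 3). In each panel the high-fat points lie above the low-fat points of the same genotype, and Het high-fat replicate 2 is the lowest of its group.

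Ly6d, a small protein anchored in the outer membrane that marks keratinocytes and early B-lineage cells in mice, was well above background on all 12 arrays. Its level was 5.13, 3.20 and 4.84 in Het mice on the high-fat diet, against 0.09, 0.57 and -1.12 in Het mice on the low-fat diet. In WT mice it was 3.48, 2.58 and 3.74 on the high-fat diet, against 0.37, -1.32 and -0.17 on the low-fat diet. Its lowest high-fat value in each genotype lay over 2 log2 units above its highest low-fat value. The difference was 4.54 ± 0.61 in Het and 3.64 ± 0.61 in WT mice (SE, n = 3 per group), or 23.3-fold and 12.5-fold. Leaving out 1 array in turn gave 4.06 to 5.14 in Het and 3.17 to 4.02 in WT mice. Between genotypes the values overlapped on each diet. Of 4 tested B cell markers none was called in either genotype. Their summed signal was 80.4% to 116.3% of the array's 75th percentile in Het high-fat, 101.1% to 115.4% in WT high-fat, 88.3% to 117.1% in Het low-fat and 103.5% to 276.6% in WT low-fat mice. The summed signal of 8 squamous epithelium markers did separate the diets, at 319.9% to 527.4% in Het high-fat, 263.5% to 334.0% in WT high-fat, 189.3% to 228.1% in Het low-fat and 205.6% to 214.3% in WT low-fat mice. Of 5 tested, Sprr1a (1.83 ± 0.41, limma adjusted p = 0.0168) and Krt10 (0.43 ± 0.12, limma adjusted p = 0.0343) rose in Het mice and none was called in WT mice. The defining markers Krt5 and Krt14 stood at -0.25 and -0.16 in Het and at -0.11 and -0.76 in WT mice, and were not called. Krt10 made up 28.0% to 63.5% of the squamous sum. Krt10 and Sprr1a had the highest mean levels of the 8 markers in each group, so the sum rests mainly on them.

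Gprc5b, an orphan G protein-coupled receptor whose family responds to retinoic acid, was also well above background throughout. Its level was 0.57, -0.15 and 0.07 in Het mice on the high-fat diet, against -2.65, -2.21 and -5.18 in Het mice on the low-fat diet. WT mice had -0.06, -0.29 and 0.31 on the high-fat diet, against -3.27, -5.08 and -3.19 on the low-fat diet. The high-fat mice of both genotypes lay within 1 log2 unit, whereas 1 low-fat mouse of each genotype stood far below the other 2. The difference was 3.51 ± 0.70 in Het and 3.83 ± 0.70 in WT mice, 11.4-fold and 14.3-fold. Without Het low-fat replicate 3 the Het difference was 2.60, and without replicate 2 of that group 4.08. Without WT low-fat replicate 2 the WT difference was 3.22, and without replicate 3 of that group 4.16. Of the 7 other receptors listed with it, 4 were measured and none was called. Gprc5d, the one with the lowest p, stood at -0.70 ± 0.32 in Het and -0.79 ± 0.32 in WT mice (limma adjusted p = 0.157 and 0.158).

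Ephb2 is a receptor tyrosine kinase that binds ephrin-B ligands on neighbouring cells and positions cells along the intestinal crypt. Its brighter probe, well above background on all arrays, stood at 0.79, -0.48 and 1.30 in Het mice on the high-fat diet, against -0.84, -1.97 and -4.25 in Het mice on the low-fat diet. WT mice had -0.46, -0.38 and -0.51 on the high-fat diet, against -3.94, -4.71 and -3.43 on the low-fat diet. WT high-fat mice were nearly alike (SD 0.07), and Het low-fat mice spread the most of all groups (SD 1.74). The closest Het mice on different diets differed by 0.36 and the closest WT mice by 2.92. The difference was 2.89 ± 0.73 in Het and 3.58 ± 0.73 in WT mice, 7.41-fold and 11.9-fold. In Het mice it was 1.94 without low-fat replicate 3 and 3.65 without low-fat replicate 1.

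The dimmer Ephb2 probe stood at -2.70, -3.87 and -2.62 in Het mice on the high-fat diet, against -4.80, -5.23 and -4.91 in Het mice on the low-fat diet. WT mice had -4.22, -4.31 and -4.13 on the high-fat diet, against -6.90, -7.51 and -7.00 on the low-fat diet. It was well above background on every high-fat array, on 2 of 3 Het low-fat arrays and on no WT low-fat array. The diet difference was 1.91 ± 0.30 in Het mice. By a bound on group means, WT mice were at least about 3.0-fold higher on the high-fat than on the low-fat diet. Such a bound sets the bright group's mean against a floor on each array of the low group. That floor is the lowest signal still well above background, or the probe's own signal where that is higher. It holds for means, not for each mouse. The flag is no strict cut on signal. Gipc2 on Het low-fat replicate 1 lacked it at -4.93, above the lowest flagged signal there (-5.12). Bounds are therefore approximate. Both probes ordered the diets alike, but Het low-fat replicate 3 was the lowest of its group on the brighter probe and the middle one on the dimmer. The log2 gap between the probes was 0.66 on that array and 2.80 to 3.96 on the other 11, as the plot of both probes shows.

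**Figure D2:**
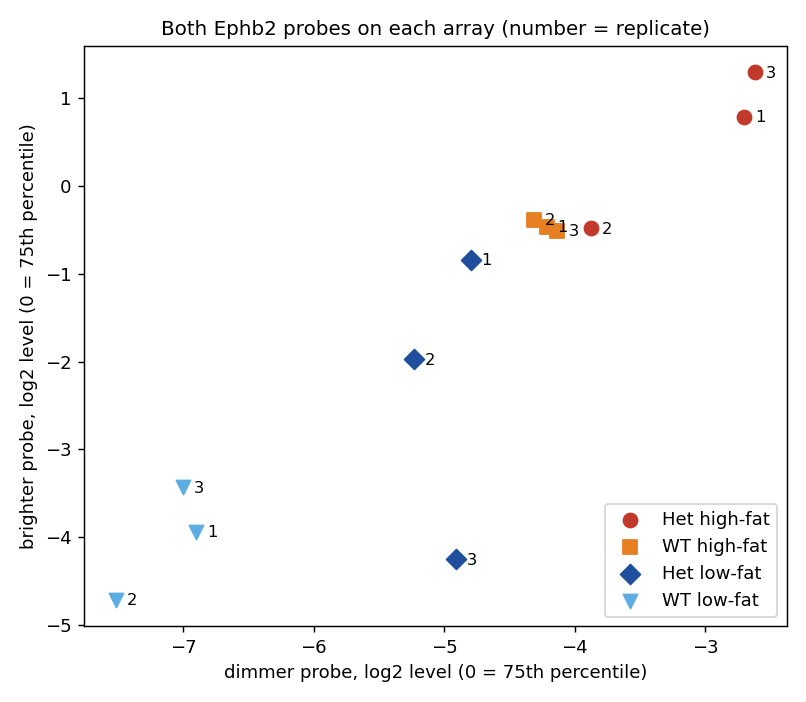
Level of the brighter Ephb2 probe (vertical axis) against the dimmer one (horizontal axis), both as log2 signal relative to the array's 75th percentile, with 1 point per mouse and its replicate number. Het low-fat replicate 3 lies away from the line of the other 11 arrays, and Het mice lie to the right of WT mice on the same diet.

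Of the 21 other Eph receptors and ephrins listed, 13 were tested. None was called in WT mice. In Het mice 2 were higher, Epha2 (1.08 ± 0.20, limma adjusted p = 0.00875), a receptor of epithelial cells, and Ephb3 (0.46 ± 0.14, limma adjusted p = 0.0495), the closest partner of Ephb2 in the crypt. Epha3 was lower in Het mice (-2.52 ± 0.39, limma adjusted p = 0.00488). Of the ephrin-B ligands, Efnb1 stood at 0.15 ± 0.19 in Het and -0.08 ± 0.19 in WT mice and Efnb2 at 0.02 ± 0.12 and 0.38 ± 0.12, and neither passed. Of Ephb2's relatives, the Ephb3 call held in 6 of 22 alternative settings.

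Gipc2 is a PDZ protein whose family binds receptor tails and links them to endocytic myosin. Its level was 0.96, -2.79 and -0.16 in Het mice on the high-fat diet, against -4.93, -4.78 and -5.03 in Het mice on the low-fat diet. WT mice had -1.58, -0.95 and -1.71 on the high-fat diet, against -5.07, -5.61 and -5.83 on the low-fat diet. It was well above background on every high-fat array, on 2 of 3 Het low-fat arrays and on 1 of 3 WT low-fat arrays, so the low-fat values lie near the background. The difference was 4.25 ± 0.71 in Het and 4.09 ± 0.71 in WT mice. High-fat Het mice spread widely (SD 1.92), and the Het difference was 5.31 without replicate 2 of that group and 3.44 without replicate 1. Among the low-fat mice every Het value lay above every WT value, by 0.04 at the closest.

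Sdcbp2, or syntenin-2, holds a pair of PDZ domains that bind syndecans and membrane phosphoinositides. It stood at 0.82, -2.77 and -0.01 in Het mice on the high-fat diet, against -4.57, -4.66 and -4.63 in Het mice on the low-fat diet. WT mice had -2.17, -1.25 and -1.43 on the high-fat diet, against -4.12, -4.94 and -4.55 on the low-fat diet. All 12 arrays were well above background, and the Het low-fat mice were nearly alike (SD 0.05) whereas the Het high-fat mice had an SD of 1.88. The difference was 3.97 ± 0.70 in Het and 2.92 ± 0.70 in WT mice, 15.6-fold and 7.56-fold, and in Het mice it was 5.03 without high-fat replicate 2 and 3.23 without high-fat replicate 1.

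Of 18 other PDZ scaffolds on the array 17 were tested. None was called in WT mice, and in Het mice Gipc1, the widely expressed relative of Gipc2, was higher (0.69 ± 0.20, limma adjusted p = 0.0424). Dlg1, a polarity scaffold, was lower in Het mice (-0.69 ± 0.13, limma adjusted p = 0.00829). Sdcbp, which encodes syntenin-1, stood at 0.33 ± 0.11 in each genotype and did not pass (limma adjusted p = 0.0581 in Het and 0.0887 in WT mice). The medians of the 17 genes were -0.17 in Het and -0.13 in WT mice, against 0.00 and -0.05 over all genes. The Gipc1 call held in 11 of 22 alternative settings.

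Pls1, or plastin 1, bundles actin in the microvilli of the intestine and in the hair cells of the inner ear. Its level was 1.22, -0.72 and 0.80 in Het mice on the high-fat diet, against -2.74, -1.46 and -4.30 in Het mice on the low-fat diet. WT mice had 0.40, 0.31 and 0.48 on the high-fat diet, against -2.90, -6.04 and -3.55 on the low-fat diet. WT high-fat mice were nearly alike (SD 0.09), and all arrays were well above background except WT low-fat replicate 2. The difference was 3.27 ± 0.85 in Het and 4.56 ± 0.85 in WT mice, and leaving out 1 array in turn gave 2.53 to 3.95 in Het and 3.62 to 5.19 in WT mice, the lowest being without low-fat replicate 3 (Het) and replicate 2 (WT). Of 18 tested plastins and microvillus proteins none was called in WT mice. In Het mice the actin bundler Fscn1 was higher (0.52 ± 0.15, limma adjusted p = 0.0433) and Rdx, which ties actin to the canalicular membrane, was lower (-0.46 ± 0.14, limma adjusted p = 0.0448), calls that held in 6 and 10 of 22 alternative settings.

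Tinag, or tubulointerstitial nephritis antigen, is a glycoprotein of the basement membrane of kidney tubules. It stood at -0.62, -3.57 and -0.83 in Het mice on the high-fat diet, against -7.21, -7.00 and -7.77 in Het mice on the low-fat diet. WT mice had -2.18, -2.75 and -1.79 on the high-fat diet, against -6.29, -7.69 and -7.18 on the low-fat diet. No Het low-fat array and 1 WT low-fat array (replicate 1) was well above background, whereas all high-fat arrays were. By the bound on group means, Het mice were at least about 12-fold higher on the high-fat than on the low-fat diet. High-fat replicate 2 stood well below the other mice of its group. The fitted difference in WT mice was 4.81 ± 0.67. With the normexp background correction, which raises dim signals, the differences were 2.95 ± 0.45 in Het and 2.35 ± 0.45 in WT mice, below those of Ly6d with that correction (4.54 and 3.60).

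Of the kidney tubule markers, Umod was well above background on 3 of 12 arrays and Slc34a1 on 2 of 12. Of the 3 tested, Lrp2, detected throughout, was lower on the high-fat diet in WT mice (-1.32 ± 0.34, limma adjusted p = 0.0488) and stood at -0.93 ± 0.34 in Het mice (limma adjusted p = 0.0869). Aqp2, also detected on all 12 arrays, stood at 0.38 ± 0.25 in Het and 0.18 ± 0.25 in WT mice, and Cdh16 at 0.89 ± 0.37 and 0.51 ± 0.37, and neither was called. Cdh16 passed the filter through Het high-fat mice alone, and no Het low-fat array was well above background for it. The summed signal of the 8 kidney markers was 37.6% to 59.2% of the array's 75th percentile in Het high-fat, 36.5% to 54.9% in WT high-fat, 42.2% to 51.8% in Het low-fat and 42.5% to 67.4% in WT low-fat mice. Aqp2 made up 49.6% to 72.8% of it. Without Aqp2 the WT groups did not overlap (11.5% to 16% on high-fat, 19.05% to 32.7% on low-fat food). The Het groups did (16.96% to 21.63% and 19.93% to 25.25%). That remainder includes markers near the background.

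Other basement membrane genes changed in both directions. Of 23 tested, 7 rose and 2 fell with the high-fat diet in Het mice, and 2 rose and 2 fell in WT mice. Npnt, called higher in Het mice, passed the filter through Het high-fat mice alone, which favours such a difference. Lama3, a laminin chain of epithelia, fell by 1.13 ± 0.20 in Het and by 1.48 ± 0.20 in WT mice (limma adjusted p = 0.00665 and 0.00893), and by 0.51 and without a call in WT mice with the mean of its probes. Its partner chain Lamb3 rose by 1.31 ± 0.19 in Het mice (limma adjusted p = 0.00424) and stood at 0.63 ± 0.19 in WT mice (limma adjusted p = 0.0681). Smoc2, a calcium-binding matrix protein, rose by 1.18 ± 0.33 in Het and 1.83 ± 0.33 in WT mice (limma adjusted p = 0.0366 and 0.0190), calls that held in 13 and 18 of 22 alternative settings. Lama2, the laminin chain of muscle, rose by 0.89 ± 0.23 and 0.91 ± 0.23 (limma adjusted p = 0.0295 and 0.0471), calls that held in 15 and 9 of 22 settings and in neither genotype with the mean of its probes. Col4a6 fell by 0.98 ± 0.20 and 0.85 ± 0.20 (limma adjusted p = 0.0118 and 0.0390) on its brightest probe, but with the mean of its probes it stood at 0.09 in Het and 0.27 in WT mice and was not called.

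Hormad2, a protein of unsynapsed chromosomes in meiosis, lay below the 75th percentile on every array. It stood at -2.91, -4.78 and -2.55 in Het mice on the high-fat diet, against -6.57, -6.06 and -7.76 in Het mice on the low-fat diet. WT mice had -3.64, -3.99 and -3.14 on the high-fat diet, against -5.21, -5.00 and -7.23 on the low-fat diet. All high-fat arrays, 2 of 3 WT low-fat arrays and no Het low-fat array were well above background. By the bound on group means, Het mice were at least about 3.60-fold higher on the high-fat than on the low-fat diet, with high-fat replicate 2 the lowest of its group. The fitted difference in WT mice was 2.22 ± 0.70, and with the normexp background correction the differences were 1.54 ± 0.30 in Het and 1.14 ± 0.30 in WT mice. Of the germ cell markers, Ddx4 and Sycp3 were well above background on no array and Prm1 on all 12. Of 3 tested, Prm1 was lower in Het mice (-1.09 ± 0.26, limma adjusted p = 0.0202) and none was called in WT mice. The summed signal of 7 markers was 25.7% to 47.6% of the 75th percentile in Het high-fat, 31.3% to 42.5% in WT high-fat, 37.8% to 57.7% in Het low-fat and 37.1% to 54.2% in WT low-fat mice. Of 10 tested genes of HORMA proteins and the synaptonemal complex 2 rose in Het and 1 in WT mice. Trip13, the ATPase that remodels HORMA proteins, rose by 0.58 ± 0.12 in Het and 0.55 ± 0.12 in WT mice (limma adjusted p = 0.0125 and 0.0322). The mitotic checkpoint gene Mad2l1 rose by 0.64 ± 0.16 in Het mice (limma adjusted p = 0.0265) and stood at 0.50 ± 0.16 in WT mice.

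**Figure D3:**
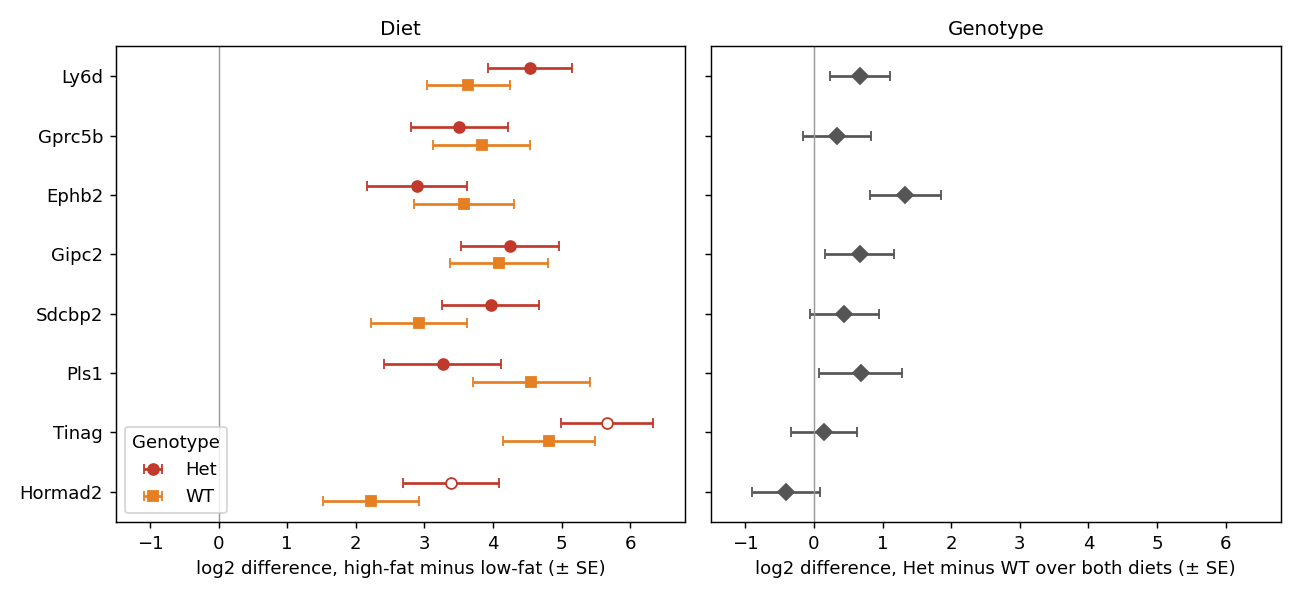
Log2 differences of the 8 genes ± SE, each from its brightest probe. The left panel gives high-fat minus low-fat in Het (circles) and WT mice (squares), all above 2, with open circles for Tinag and Hormad2 in Het mice, whose low-fat arrays were all not well above background, and the right panel gives Het minus WT over both diets, between -0.40 and 1.33.

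By the threshold used for all genes (limma adjusted p under 0.05), 8 of 8 were called higher in Het and 7 of 8 in WT mice, all but Hormad2. Over all genes 7.60% in Het and 2.72% in WT mice were called higher, and nothing is read from the members' counts, since diet chose them.

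Genotypes were compared over both diets, as Het minus WT, and such differences cannot be fully told apart from slide. None of the 8 genes was called (limma adjusted p = 0.999 for each), as none of the 17037 genes was (0%). At an unadjusted p under 0.05 there were 824 genes, or 4.84%, and 1 of the 8, Ephb2. On its brighter probe Ephb2 stood at 1.33 ± 0.52 (limma unadjusted p = 0.0264). The other differences were 0.68 ± 0.60 for Pls1, 0.67 ± 0.50 for Gipc2, 0.67 ± 0.43 for Ly6d, 0.44 ± 0.50 for Sdcbp2, 0.34 ± 0.50 for Gprc5b, 0.15 ± 0.48 for Tinag and -0.40 ± 0.49 for Hormad2. Het was above WT for 7 of 8 genes, with a median of 0.56, whereas 52.2% of all genes were above 0. The sign of Tinag turned under 4 alternative settings. That count was not tested, and the 8 genes share their arrays.

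On the dimmer Ephb2 probe the fitted genotype difference over both diets was 1.66 ± 0.21. Its limma adjusted p was 0.188 over all 25291 probes, and so it did not pass. The average includes low-fat arrays of both genotypes that were not well above background. Every Het mouse lay above every WT mouse of the same diet, though genotype and slide overlap in part. Het minus WT was 1.15 ± 0.30 on high-fat food. On low-fat food no WT array was well above background, and neither was Het replicate 2. No fold or bound is therefore given there. Adjusted p ran from 0.00185 without Het high-fat replicate 2 to nearly 1 with the normexp correction, where the difference was 0.65 ± 0.13, against 1.10 ± 0.36 on the brighter probe. Without any other single array it did not pass (0.0716 to 0.538). It did pass with replicate number as a block (limma adjusted p = 0.0313), a block that the labels give no ground for.

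Within 1 diet the genotype values are a description. On the high-fat diet Het minus WT ran from 0.04 ± 0.85 (Pls1) to 1.12 ± 0.61 (Ly6d), and 8 of 8 were above 0, as were 54.9% of all genes. On the low-fat diet it ran from -0.99 ± 0.70 (Hormad2) to 1.67 ± 0.73 (Ephb2), with 5 of 8 above 0. The low-fat values of Tinag and Hormad2, and so their genotype and interaction values, rest on Het arrays not well above background. On the brightest probes, Het and WT mice on the high-fat diet overlapped for all 8 genes, where 9.14% of all genes had every Het above every WT value. On the low-fat diet Gipc2 alone had every Het above every WT value, against 1.95% of all genes. The interaction, the diet difference in Het minus that in WT mice, ran from -1.29 ± 1.21 (Pls1) to 1.16 ± 0.99 (Hormad2). With slide as a block, only 1 slide per diet holds both genotypes. The high-fat values then set the Het mice against WT replicate 3 alone. The low-fat values set Het replicate 1 alone against the WT mice. Each rests on 1 array of 1 genotype and is no group estimate. So fitted, Het minus WT on high-fat food ran from -0.27 ± 1.06 (Hormad2) to 1.05 ± 0.88 (Ephb2), with 5 of 8 above 0 and Pls1, Gprc5b and Hormad2 below. On low-fat food it ran from -0.76 ± 1.06 (Hormad2) to 3.19 ± 0.88 (Ephb2), again with 5 of 8 above 0.

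Outside WT mice on the high-fat diet, mice of 1 group tended to differ from each other in the same direction across the 8 genes. Het high-fat replicate 2 was the lowest of its group for 8 of 8 genes and replicate 1 the highest for 6. Het low-fat replicate 3 was the lowest for 7 and WT low-fat replicate 2 for 6, the low-fat arrays with the lowest 75th percentiles. In WT mice on the high-fat diet, replicate 2 was the lowest for 5 genes and the highest for 3. The 75th percentiles were ordered otherwise on the high-fat diet. Het replicate 1, the highest for 6 genes, had the lowest there (975.1), and WT replicate 2 had the highest (1688.5). Averaged over the genes, deviations from the group mean ran from -1.40 (Het high-fat replicate 2) to 0.85 (Het high-fat replicate 1), and in WT mice on the high-fat diet from -0.13 to 0.20. The map of deviations shows Het high-fat replicate 2 below its group mean in every row.

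**Figure D4:**
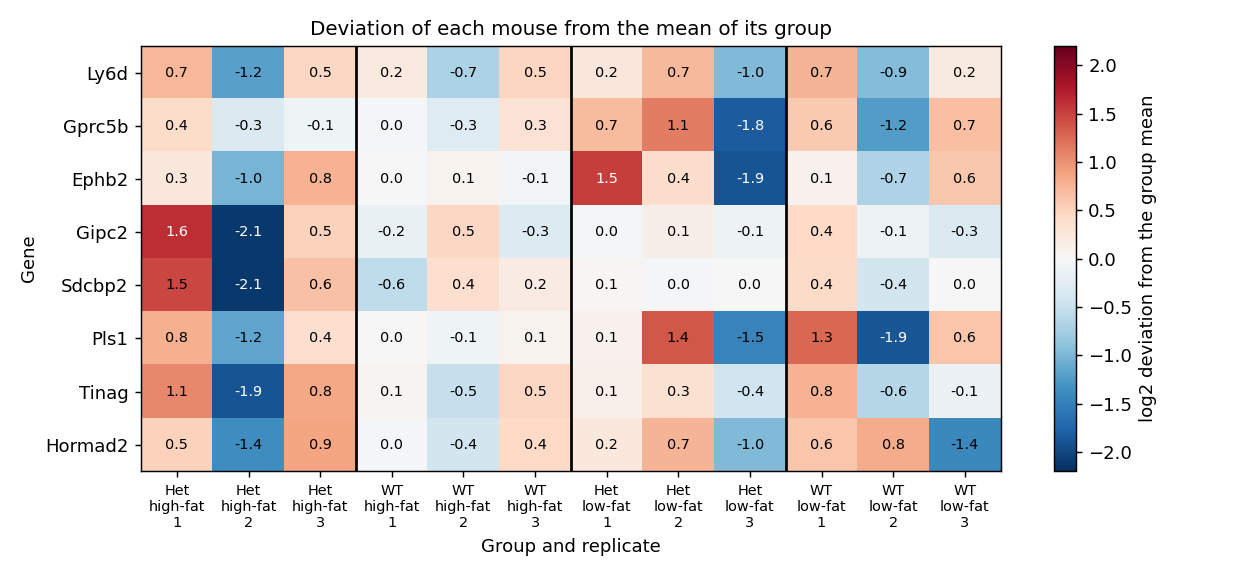
Deviation of each mouse (columns, 12 arrays in 4 groups) from its group mean for each of the 8 genes (rows), in log2 units, with red above and blue below the mean. Het high-fat replicate 2 is below its group mean for all 8 genes.

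Over the 28 pairs of genes, deviations from the group means correlated with a median Pearson r of 0.59 (0.20 to 0.96) over 12 arrays, above 0 for all 28. The median was 0.86 over the 6 high-fat arrays and 0.65 over the 6 low-fat arrays, with 27 of 28 above 0 in the low-fat arrays. These points share arrays, and so also their scaling and RNA, and no p is given. On the Het high-fat arrays Gprc5b varied least (SD 0.37) and Gipc2 most.

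The genes most like these 8 in level, by Pearson r with the mean of their standardized levels over 12 arrays, were Col12a1 (r = 0.986), a collagen that coats fibrils, Plekha1 (0.985), which binds phosphoinositides, a transcript named only NAP103812-1 in the array design (0.985), Cd63 (0.984), a tetraspanin of endosomes, and Slc44a3 (0.982), a choline transporter-like protein. The 12 arrays fall into 2 diets on this score, so any gene that separates the diets cleanly has a high r here. Cd63 was also the gene nearest to Gipc2 (r = 0.995) and to Sdcbp2 (0.985). By deviations from the group means the nearest included Nenf (0.967), a secreted neurotrophic factor, NAP103812-1 (0.963), Elovl7 (0.960), a fatty acid elongase, and Pdzk1ip1 (0.938), a small membrane protein that binds a PDZ scaffold. Of these, Elovl7 differed with diet by 3.73 ± 0.54 in Het and 2.37 ± 0.54 in WT mice (limma adjusted p = 0.00439 and 0.0355). Pdzk1ip1 did not pass, at -0.09 ± 0.38 and 0.30 ± 0.38 (limma adjusted p = 0.886 and 0.651).

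Across all 8 pathway lists, with the 8 genes left out, 120 genes were tested, and 17 rose and 9 fell in Het mice while 5 rose and 2 fell in WT mice. Those are 14.2% and 7.50% in Het and 4.17% and 1.67% in WT mice, beside 7.60% and 8.25% in Het and 2.72% and 3.16% in WT mice over all genes. With each array scaled to its median in place of its 75th percentile, 16 list genes rose and 2 fell in WT mice. Of 25 genes of epithelial junctions and keratins, 3 rose and 4 fell in Het mice. Krt8, a keratin of hepatocytes and bile duct cells, rose by 0.92 ± 0.17 in Het and 0.77 ± 0.17 in WT mice (limma adjusted p = 0.00758 and 0.0300), the 1 call of this list in WT mice. The tight junction genes Ocln and Cldn12 fell by 1.02 ± 0.17 and 0.69 ± 0.14 in Het mice (limma adjusted p = 0.00607 and 0.0109). Cdh2, the N-cadherin of hepatocytes, fell by 0.85 ± 0.15 in Het mice (limma adjusted p = 0.00790). Of 10 tested relatives of Ly6d, Plaur, the urokinase receptor, rose by 1.23 ± 0.21 in Het and 1.32 ± 0.21 in WT mice (limma adjusted p = 0.00653 and 0.0135), a call that held in all 22 alternative settings in each genotype.

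Markers of several other cell types differed with diet as well. The summed signal of 9 markers of bile duct and progenitor cells was 7044%, 1370% and 3735% of the array's 75th percentile in Het high-fat, 2374%, 2512% and 2074% in WT high-fat, 855%, 1029% and 781% in Het low-fat and 984%, 786% and 740% in WT low-fat mice. All high-fat mice lay above all low-fat mice, and Het high-fat replicate 2 was again the lowest high-fat mouse. Spp1 alone made up 77.5% to 94.6% of the sum, and without it the sums were 146.4% to 379.8% in Het high-fat, 203.5% to 231.3% in WT high-fat, 159.4% to 168.9% in Het low-fat and 149.4% to 166.7% in WT low-fat mice, so that the Het groups overlapped. In Het mice 3 of the 9 rose, Spp1 (2.09), Tspan8 (2.18) and Prom1, and none passed in WT mice. Prom1 passed the filter through high-fat groups alone, which favours such a difference. No Het low-fat array was well above background for Prom1, so its difference is not given. The defining markers of this list, Krt7, Krt19 and Epcam, were well above background on all 12 arrays and none passed. They stood at 0.45, 0.95 and 1.40 in Het and 0.87, 0.79 and 0.75 in WT mice.

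The summed signal of 8 adipocyte markers was 6981%, 2809% and 5895% in Het high-fat, 3312%, 4329% and 3629% in WT high-fat, 915%, 1132% and 559% in Het low-fat and 958%, 628% and 921% in WT low-fat mice. Cidec, Fabp4 and Aqp7 rose in both genotypes, genes that fat-laden hepatocytes also express. Aqp7 was well above background on no low-fat array and passed the filter through Het high-fat mice alone, which favours such a difference. Of the defining adipocyte markers Lep was well above background on no array, Plin1 on 3 of 12 and Adipoq on 7 of 12. Of 8 stellate cell and fibroblast markers 4 rose in Het and 3 in WT mice, their sum being 7207% to 9961% in Het high-fat, 6906% to 7395% in WT high-fat, 4882% to 6792% in Het low-fat and 5503% to 5765% in WT low-fat mice. Of 8 macrophage and Kupffer cell markers 3 rose in Het and 2 in WT mice, with sums that overlapped between the diets. Gpnmb, called in each genotype, passed the filter through high-fat groups alone, which favours such a difference. Of 8 intestinal markers 4 were tested and none was called, and Cdx1, Cdx2 and Muc2 were well above background on 2, 1 and 0 of 12 arrays. Their summed signal was 5866% to 9318% in Het high-fat, 6361% to 9686% in WT high-fat, 4936% to 5653% in Het low-fat and 5283% to 5782% in WT low-fat mice, with no overlap of the diets. Fabp2 made up at least 93.6% of it on every array and stood at 0.59 ± 0.20 in Het and 0.54 ± 0.20 in WT mice (limma adjusted p = 0.0691 and 0.130).

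Other markers were lower. The summed signal of 7 sinusoidal endothelial markers was 2727% to 3327% in Het high-fat, 2930% to 3343% in WT high-fat, 3418% to 3802% in Het low-fat and 3559% to 3996% in WT low-fat mice, with every high-fat mouse below every low-fat mouse. Clec4g, not called, made up 39.6% to 55.5% of it. Without Clec4g the WT groups overlapped (1538% to 1917% on high-fat, 1709% to 2078% on low-fat food). The Het groups did not (1354% to 1540% and 1732% to 2021%). Kdr fell in both genotypes and Cdh5 and Oit3 in Het mice, whereas Lyve1 rose in WT mice (1.24 ± 0.32, limma adjusted p = 0.0492). Of 6 hepatocyte markers Ttr, Cps1 and Hnf4a fell in Het mice and Cps1 in WT mice, Cps1 by 0.94 ± 0.16 in Het and 1.12 ± 0.16 in WT mice, and their sums overlapped between the diets. Of 7 T and NK cell markers Cd3e fell in Het mice (-1.16 ± 0.30, limma adjusted p = 0.0282), and of 2 tested pancreatic acinar markers none was called. The part of any of these cells in the differences of the 8 genes was not tested.

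**Figure D5:**
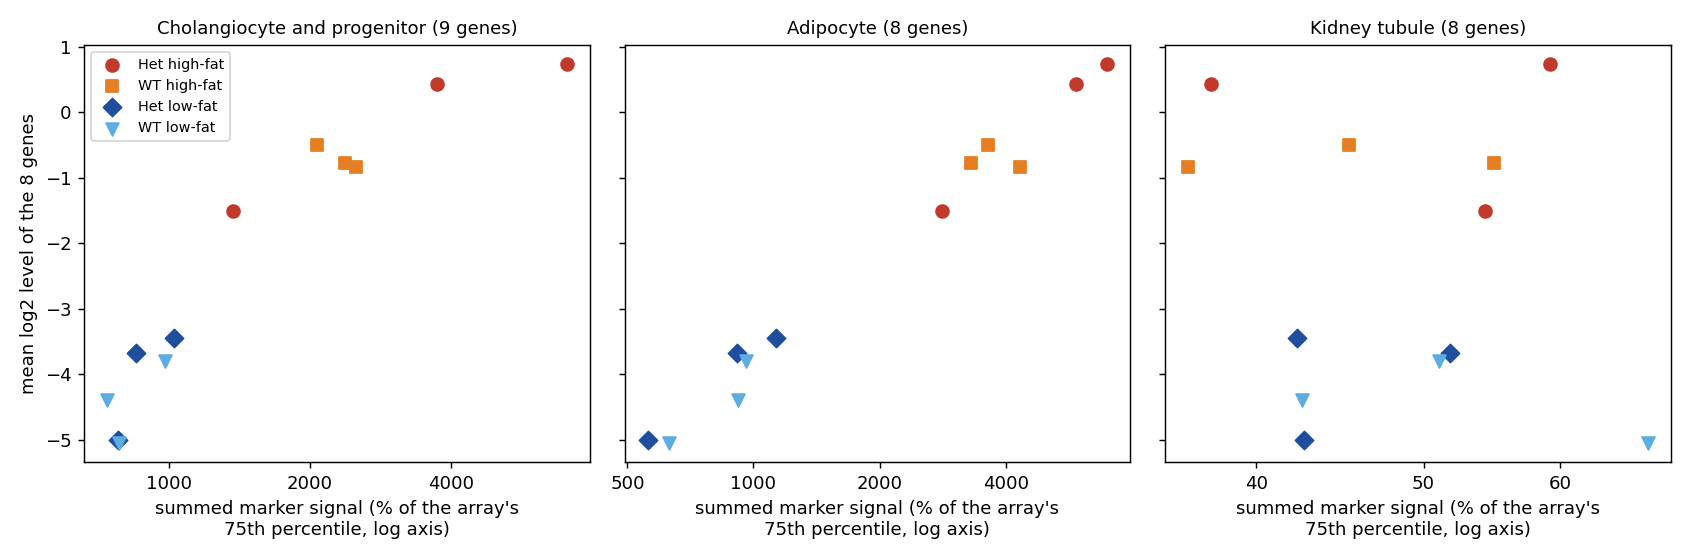
Mean log2 level of the 8 genes on each array (vertical axis) against the summed signal of 3 marker lists (horizontal log axes, as a percent of the array's 75th percentile), with 1 point per mouse in 4 groups. Bile duct and adipocyte sums are higher on the high-fat arrays, where Het replicate 2 is the lowest, and the kidney sums of the diets overlap.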

How the data were processed

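Liver RNA of 12 mice in 4 groups of 3 was measured on 1-colour Agilent arrays, and groups were taken from the labels. The deposited scanner files hold processed signals as intensity values, which the submitters' processing notes credit to version 9.5 of Agilent Feature Extraction. Per the file headers they were detrended and background-subtracted, and dim spots could receive surrogate values. The deposited series table was identical to these signals over all 45018 spots compared. No aligner or genome enters such values.

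From there, control spots and 1344 outlier spots were left out, spots of a probe were averaged, and log2 of each signal was taken relative to the 75th percentile of its array. A probe was kept where all 3 arrays of at least 1 group were well above background and each group had at least 2 values. The brightest kept probe stood for a gene, giving 25291 probes and 17037 genes, 14207 of them with a current symbol. limma 3.58.1 in R 4.3.3 was fitted to the 4 group means (8 residual degrees of freedom, 2.8 prior), two-sided, with Benjamini-Hochberg adjustment over all genes and a threshold of 0.05. The fit was tested on simulated data. The labels describe each array as 1 mouse liver, and p-values measure the spread between these arrays.

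The 8 genes, the pathway lists and the marker lists were chosen with earlier results of these data known. Named from each pathway list were up to 4 called genes of lowest p, or else the 1 gene of lowest p, and ligands or close relatives of the 8 genes and some cell type markers were added after their values were seen. Genes of like pattern were the 5 highest by each correlation. A gene that these rules name is not reported here. Replicate numbers were not taken to pair mice, since the labels give no ground for it. Deviations of same-numbered arrays correlated between -0.46 and 0.45. Arrays of different number were not set beside them, so this range does not settle pairing. Alternatives changed scaling, background correction, the filter, the probe rule, blocks for replicate number and slide, the samples fitted, the moderation and the arrays left out. Probe sequences are those of the array design and promoters those of RefSeq.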

Additional observations from a re-analysis of the deposited data

How the results depend on the processing

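The diet differences of the 8 genes kept their sign under every alternative that gave a value. Of these values 352 lay within the replicate spread of those reported and 8 did not, 6 of them with normexp (Tinag, Gipc2 and Hormad2 in both genotypes) and 2 without Het high-fat replicate 2 (Gipc2 and Sdcbp2 in Het mice). Of the genotype values 168 kept their sign and 4 changed it, all for Tinag, which stood at -0.020 with slide as a fixed block and ran from -0.12 to 0.62 when each array was left out. Genes called with diet numbered 2699 in Het and 1002 in WT mice. With no filter on dim probes they were 1191 and 156, with slide as a random block 5424 and 3594, and with only the 2 groups fitted 1559 and 601. With the replicate block there were 547 in WT mice, though the labels give no ground for such a block. Leaving out each array gave 879 to 2879 in Het and 186 to 1126 in WT mice. The genotype contrast called 0 genes (824 at an unadjusted p under 0.05), 1 with slide as a fixed block and 0 to 7 with each array left out, 7 being without WT high-fat replicate 3. Of the calls in WT mice 46.3% were higher, against 59.5% with quantile normalization and 74.6% with median scaling, which moved the median of all genes to 0.07 from -0.05. Pathway list genes called ran from 12 to 48 in Het (26) and from 2 to 33 in WT mice (7). The causes were not tested. Probes well above background on all arrays gave no value for Tinag, Pls1, Gipc2, Hormad2 or the dimmer Ephb2 probe, and a fixed slide block could not be fitted for diet. For genotype that block compares Het with WT mice only within the 1 slide of each diet that holds both. The alternatives for the dimmer Ephb2 probe were chosen after seeing the data. Low-fat values of Tinag, Hormad2, Gipc2 and that probe lie near the background, which limits their folds.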
